A study of Homo sapiens with 6 samples.

Results

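The aldehyde dehydrogenases described here are 10 genes, ALDH1A1, ALDH1A3, ALDH1B1, ALDH2, ALDH3A1, ALDH3A2, ALDH3B1, ALDH7A1, ALDH9A1 and ALDH18A1, chosen by symbol among the 32192 genes of the count table and the 31951 genes of the FPKM table. All 10 were found in both tables, and all 10 passed the filter on low counts that left 16971 genes for testing. They were measured in A549, a long-established human line derived from a lung adenocarcinoma. The cells were transiently transfected either with a plasmid carrying the APEX1 coding sequence fused to a FLAG tag (APEX1-OE, 3 libraries) or with the control plasmid (Ctrl, 3 libraries). APEX1 is a base excision repair endonuclease and RNA-binding protein, and the comparison of the groups asks which transcripts change when it is overexpressed. Both groups share the cell line and the transfection, and the plasmid's APEX1 transcripts cannot be told apart from those of the chromosomal gene in these counts. The labels do not say whether the libraries of a group came from separate cultures, so p values measure the spread between libraries, which may be technical.

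Aldehyde dehydrogenases oxidise aldehydes to carboxylic acids with NAD or NADP as the acceptor, through a cysteine in the active site. Members of the ALDH1A branch make retinoic acid from retinaldehyde, the mitochondrial members ALDH2 and ALDH1B1 oxidise acetaldehyde, and the ALDH3 branch oxidises aromatic and fatty aldehydes, including products of lipid peroxidation. ALDH1A1 and ALDH3A1 are known as enzymes of lung tumour cells that also inactivate oxazaphosphorine drugs such as cyclophosphamide derivatives. A549 carries a mutant KEAP1, the inhibitor of the transcription factor NRF2, which is known to act on several genes of aldehyde metabolism.

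To show how the coding sequences of the family differ, the stretch around the codon of the active-site cysteine is given for the genes in which it was found. The codon was located by the PROSITE pattern for the aldehyde dehydrogenase cysteine active site in the canonical GENCODE transcript of each gene on GRCh38. It was matched once in 8 of the 10 genes. In ALDH7A1 and ALDH18A1 the pattern had no match, which does not show that a codon for an active-site cysteine is absent. Each line holds 63 bases of coding sequence, read 5′ to 3′ on the coding strand, with the cysteine codon in capitals and 30 bases on each side.
ALDH1A1: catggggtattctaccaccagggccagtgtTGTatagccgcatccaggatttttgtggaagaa
ALDH1A3: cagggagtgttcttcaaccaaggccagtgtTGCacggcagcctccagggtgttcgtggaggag
ALDH1B1: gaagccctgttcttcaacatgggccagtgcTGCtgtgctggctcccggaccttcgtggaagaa
ALDH2: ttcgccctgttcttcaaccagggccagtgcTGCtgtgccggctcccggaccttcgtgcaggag
ALDH3A1: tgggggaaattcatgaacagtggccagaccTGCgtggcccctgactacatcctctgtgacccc
ALDH3A2: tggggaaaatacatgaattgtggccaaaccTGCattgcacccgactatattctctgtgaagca
ALDH3B1: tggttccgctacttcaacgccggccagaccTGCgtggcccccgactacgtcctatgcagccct
ALDH9A1: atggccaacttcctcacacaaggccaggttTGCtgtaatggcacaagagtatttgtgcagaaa

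In this stretch the mitochondrial pair ALDH1B1 and ALDH2 shared 54 of 63 bases, ALDH3A1 and ALDH3A2 shared 49, and ALDH1A1 and ALDH1A3 shared 47. Over the whole coding sequence ALDH1B1 and ALDH2 were the most alike of all pairs, with 72.1% identity over the alignment. ALDH1A1 and ALDH1A3 followed with 66.3%. The GC content of the stretch was 49.2% in ALDH1A1, 44.4% in ALDH3A2 and 46.0% in ALDH9A1. It was 58.7% in ALDH3A1 and ALDH1B1, 60.3% in ALDH1A3 and 65.1% in ALDH2 and ALDH3B1. The comparison of the libraries further on uses the GC content over all exons, which can differ from it, at 47.8% for ALDH2. The cysteine codon of ALDH1A1 is codon 303, in exon 9 of 13, at chr9:72917046-72917048 on the minus strand. That of ALDH3A1 is codon 244, in exon 6 of 11, at chr17:19741168-19741170 on the minus strand. That of ALDH2 is codon 319, in exon 9 of 13, at chr12:111792654-111792656 on the plus strand.

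The 10 genes lie on 8 chromosomes of GRCh38 by GENCODE release 44. ALDH3A2 (chr17:19648136-19685760, plus strand) and ALDH3A1 (chr17:19737984-19748943, minus strand) lie near each other on chromosome 17. ALDH1A1 (chr9:72900671-73080442, minus strand) and ALDH1B1 (chr9:38392702-38398661, plus strand) lie on chromosome 9. ALDH1B1 has 2 exons in its canonical transcript, the fewest of the 10, and ALDH7A1 (chr5:126531200-126595362) and ALDH18A1 (chr10:95605941-95656711) have 18 each, both on the minus strand. The others are ALDH1A3 (chr15:100877714-100916626, plus), ALDH2 (chr12:111766887-111817532, plus), ALDH3B1 (chr11:68008578-68029282, plus) and ALDH9A1 (chr1:165662216-165698562, minus). The GC content over the union of a gene's exons ran from 40.9% in ALDH1A1 to 60.2% in ALDH3A1.

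The deposited counts summed to between 28131955 and 41009197 per library. APEX1 itself, the targeted gene, had between 33500 and 50335 counts in the APEX1-OE libraries and between 6551 and 8384 in the Ctrl libraries, so the labels and the transgene matched. The epithelial keratins KRT7, KRT8 and KRT18 each stood above 1550 FPKM in all 6 libraries, whereas EPCAM lay between 0.18 and 0.52 FPKM and was nearly absent. The summed FPKM of the markers of leukocytes, endothelium, fibroblasts and smooth muscle lay between 1.89 and 2.12 in APEX1-OE and between 1.79 and 2.35 in Ctrl, and PTPRC had at most 1 count in a library. The first principal component (PC1) of the log2 CPM (counts scaled to library size) held 72.6% of the variance. Below 0 on it lay the first APEX1-OE library with the Ctrl libraries 1 and 2, and above 0 lay the other two APEX1-OE libraries with the Ctrl library 3. The sets are called PC1-negative and PC1-positive libraries below. This division crosses the groups, and APEX1-OE replicate 1 lay farthest out, at -58.5 against -32.7 and -31.1 for the Ctrl libraries on its side.

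ALDH1A1 and ALDH3A1 were the dominant aldehyde dehydrogenase transcripts of A549. In FPKM, a level per length of gene, they ranked between the 20th and the 79th place (ALDH1A1) and between the 35th and the 48th place (ALDH3A1) of the 31951 genes across libraries. Together they made up between 92.2% and 94.1% of the summed FPKM of the 10 genes in every library. Of all counts in a library, the 10 genes took between 0.691% and 0.904%. Values per library are given below in the order of replicates 1, 2 and 3.

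ALDH1A1, the cytosolic retinaldehyde dehydrogenase whose activity is used to mark stem-like tumour cells, stood at 686, 1428 and 1957 FPKM with APEX1 overexpressed, against 997, 989 and 1614 FPKM with the control plasmid. The lowest and the highest value both came from APEX1-OE, and the groups overlapped throughout. The 3 PC1-positive libraries were all higher than the 3 PC1-negative ones. The mean was 1357 ± 638 FPKM (SD, n = 3) in APEX1-OE and 1200 ± 359 FPKM (SD, n = 3) in Ctrl.

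ALDH3A1, the cytosolic enzyme that is abundant in the cornea and oxidises aromatic and medium-chain aldehydes, stood at 1516, 1170 and 1184 FPKM with APEX1 overexpressed, against 1430, 1503 and 1068 FPKM with the control plasmid. Here the PC1-negative libraries were the high ones, the opposite of ALDH1A1, and the groups overlapped again. The mean was 1290 ± 195 FPKM (SD, n = 3) in APEX1-OE and 1334 ± 233 FPKM (SD, n = 3) in Ctrl.

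Which of the pair was the more abundant therefore differed between libraries of one group. The ratio of the FPKM of ALDH1A1 to that of ALDH3A1 was 0.453, 1.22 and 1.65 with APEX1 overexpressed, against 0.697, 0.658 and 1.51 with the control plasmid. By FPKM, ALDH3A1 led in the PC1-negative libraries and ALDH1A1 in the PC1-positive ones. The lead depended on the length behind the level. By counts per base of the canonical transcript, a setting added after seeing the data, the ratio was 0.331, 0.891 and 1.21 in APEX1-OE and 0.509, 0.480 and 1.10 in Ctrl, so ALDH3A1 also led in APEX1-OE replicate 2. By either length the ratio was higher in each PC1-positive library than in each PC1-negative one. By the mean over the libraries the pair could not be ordered beyond its spread.

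**Figure D1:**
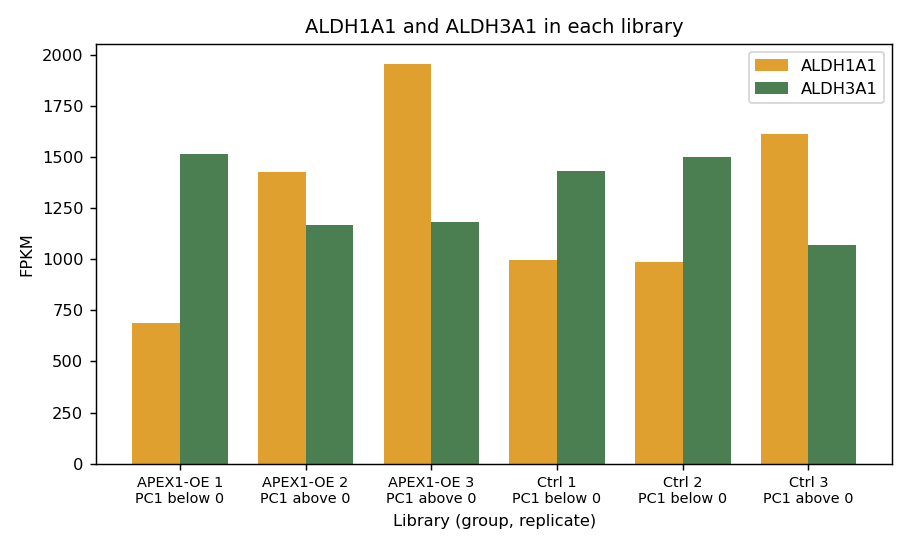
FPKM of ALDH1A1 and ALDH3A1 (bars, 1 value per library) in each APEX1-OE and Ctrl library, with the side of PC1 on which the library lay. ALDH3A1 is the taller bar in the 3 libraries with PC1 below 0 and ALDH1A1 in the 3 with PC1 above 0. With canonical transcript lengths ALDH3A1 would also be the taller in APEX1-OE replicate 2, at a ratio of 0.891.

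The third gene in the order was ALDH3B1, which oxidises aldehydes from lipid peroxidation, at 108, 87.6 and 71.1 FPKM with APEX1 overexpressed, against 105, 101 and 81.6 FPKM with the control plasmid. It was over 10-fold below ALDH3A1 in each library and stood apart from the gene after it. Its close relative ALDH3B2 had 2 counts in APEX1-OE replicate 2 and none in the other libraries.

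ALDH18A1, ALDH3A2 and ALDH1B1 formed a group whose ranges overlapped, with mean levels of 25.3, 24.7 and 22.6 FPKM. ALDH18A1, the bifunctional enzyme that starts the synthesis of proline and ornithine from glutamate, was the steadiest of them, at 21.9, 26.7 and 25.9 FPKM with APEX1 overexpressed, against 25.8, 25.3 and 26.2 FPKM with the control plasmid. ALDH3A2, the fatty aldehyde dehydrogenase that is deficient in Sjögren-Larsson syndrome, was at 13.2, 26.6 and 34.7 FPKM with APEX1 overexpressed, against 21.9, 19.9 and 32.2 FPKM with the control plasmid. By FPKM, APEX1-OE replicate 1 was the lowest library for both genes. In CPM this held for ALDH3A2, but ALDH18A1 was lowest in APEX1-OE replicate 3, at 98.7 against 101.5 in APEX1-OE replicate 1. ALDH1B1, the mitochondrial relative of ALDH2, was at 18.7, 24.4 and 25.7 FPKM with APEX1 overexpressed, against 20.7, 21.8 and 24.3 FPKM with the control plasmid.

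Lower still came ALDH2, ALDH9A1 and ALDH7A1, each overlapping its neighbour in the order. ALDH2, the main mitochondrial enzyme of acetaldehyde oxidation, was at 10.0, 11.1 and 14.5 FPKM with APEX1 overexpressed, against 13.2, 12.7 and 13.4 FPKM with the control plasmid. The length behind the FPKM of ALDH2 was 4.56 times that of ALDH1A1, and its canonical transcript of 9561 bases holds 1551 bases of coding sequence. A gene without a symbol on the same strand, ENSG00000257767, overlaps ALDH2 and had between 41.2% and 50.5% of its number of counts, and no source used here says how reads of the overlap were assigned.

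ALDH9A1, which takes part in carnitine synthesis, lay between 6.92 and 13.02 FPKM in APEX1-OE and between 8.35 and 12.7 FPKM in Ctrl. ALDH7A1, the enzyme of lysine degradation known as antiquitin, lay between 4.83 and 10.5 FPKM in APEX1-OE and between 6.89 and 10.1 FPKM in Ctrl. Both had their lowest value in APEX1-OE replicate 1 and their highest in APEX1-OE replicate 3. ALDH9A1 was above ALDH7A1 in 6 of 6 libraries although their ranges overlapped.

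ALDH1A3, the other retinaldehyde dehydrogenase among the 10, was the lowest gene, at 1.06, 1.94 and 1.95 FPKM with APEX1 overexpressed, against 1.41, 1.20 and 1.85 FPKM with the control plasmid. Its values did not overlap those of ALDH7A1. It rested on between 209 and 522 counts per library. The antisense gene ALDH1A3-AS1 on the opposite strand had between 173 and 314 counts, that is between 58.6% and 90.9% of the number for ALDH1A3. The kit marks strand, but the use of strand in counting is not given, so the share of antisense reads in the value of ALDH1A3 is unknown.

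**Figure D2:**
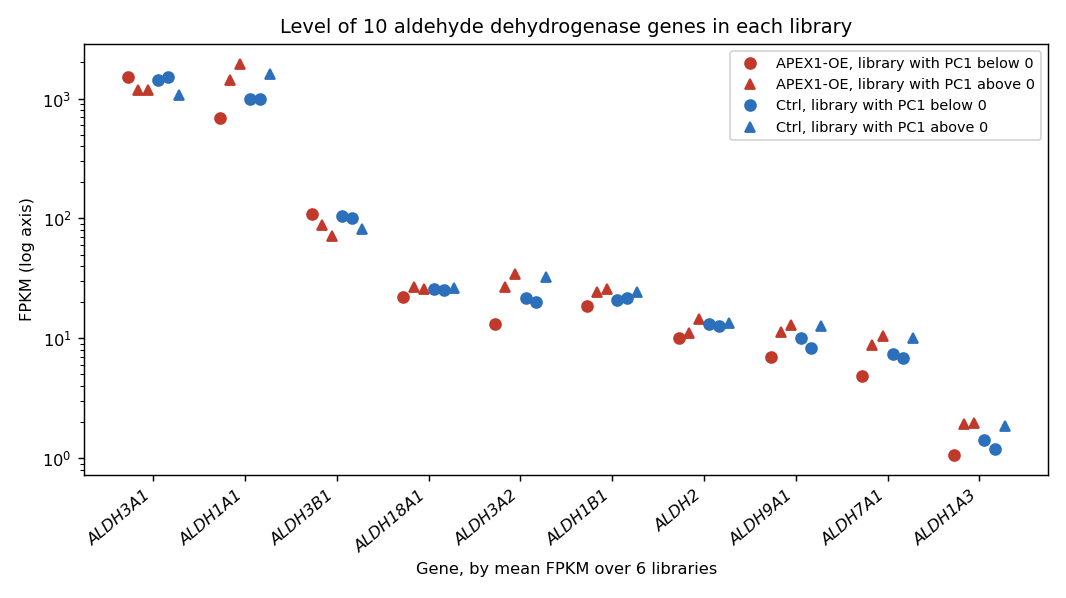
FPKM (log axis) of the 10 aldehyde dehydrogenase genes, ordered by their mean, with 1 point per library, coloured by group and shaped by the side of PC1. ALDH3A1 and ALDH1A1 lie above 680 FPKM in every library, ALDH3B1 between 71.1 and 108 FPKM, and ALDH1A3 below 2 FPKM.

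APEX1-OE was then compared with Ctrl on the counts. With the quasi-likelihood test of edgeR and Benjamini-Hochberg adjustment over all genes, none of the 10 aldehyde dehydrogenases reached an adjusted p below 0.05, where 0.00589% of the 16971 genes were called (1 gene, APEX1 itself). Before adjustment, 0 of 10 were under 0.05, beside 0.695% of all genes. DESeq2 and limma on the log2 FPKM likewise called none of the 10, and none of them had an unadjusted p under 0.05 in either. The groups overlapped for all 10 genes in CPM, while they did not overlap for 3.39% of all genes. In bulk libraries a change in RNA per cell and a change in the share of cells that express a gene cannot be told apart.

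The log2 fold changes, APEX1-OE minus Ctrl, were small in both directions. They lay between -0.17 (ALDH2) and 0.14 (ALDH1A1), with 3 of 10 above 0 and a median of -0.04, beside a median of 0.03 and 57.5% above 0 over all genes tested. ALDH1A1 had a log2 fold change of 0.14 (SE 0.320, 95% interval -0.60 to 0.87, adjusted p = 1.0 from edgeR). ALDH3A1 had one of -0.05 (SE 0.254, 95% interval -0.64 to 0.53, adjusted p = 1.0 from edgeR). The intervals were narrowest for ALDH18A1, from -0.46 to 0.31, and for ALDH1B1, from -0.38 to 0.42. That of ALDH2 ran from -0.58 to 0.25. For all but ALDH18A1 and ALDH1B1 the interval reached beyond 0.5 on at least one side, so a change of that size on the log2 scale was not excluded in that direction.

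The direction of the small differences also depended on single libraries. Without APEX1-OE replicate 1 the log2 fold change of ALDH3A2 was 0.20 and without Ctrl replicate 3 it was 0.15, and not -0.03, and without APEX1-OE replicate 3 that of ALDH1A1 was -0.17 and not 0.14. ALDH2 and ALDH18A1 kept a negative value in all 15 other settings, with none of them called.

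When the side of PC1 was entered as a term, the intervals narrowed and the signs of several genes turned. The side was found in these same counts, so the intervals and p values of this fit may be too small. No aldehyde dehydrogenase was called in that fit, where 0.0236% of all genes were. An unadjusted p under 0.05 was reached by 2 of the 10 genes, both lower in APEX1-OE, beside 11.6% of all genes. They were ALDH3A2, with a log2 fold change of -0.31 (95% interval -0.58 to -0.05, unadjusted p = 0.0230, adjusted p = 0.374 from edgeR), and ALDH7A1, with one of -0.25 (95% interval -0.50 to -0.0074, unadjusted p = 0.0443, adjusted p = 0.418 from edgeR). ALDH1A1 was at -0.18 (adjusted p = 0.575) and ALDH3A1 at 0.15 (adjusted p = 0.473) in the same edgeR fit, so both had the opposite sign to the fit with the condition alone.

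Within each side of PC1, the differences in log2 CPM were unequal. Among the PC1-negative libraries APEX1-OE replicate 1 was below the mean of Ctrl replicates 1 and 2 by -0.55 for ALDH3A2, -0.45 for ALDH7A1 and -0.42 for ALDH1A1. Among the PC1-positive libraries the mean of APEX1-OE replicates 2 and 3 differed from Ctrl replicate 3 by -0.09, -0.07 and 0.04 for the same genes. The PC1-negative side holds 1 APEX1-OE library, the one farthest out on PC1, and its part in the negative values of the fit with the term was not tested. For ALDH3A1 the differences were 0.16 and 0.13, alike on both sides.

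**Figure D3:**
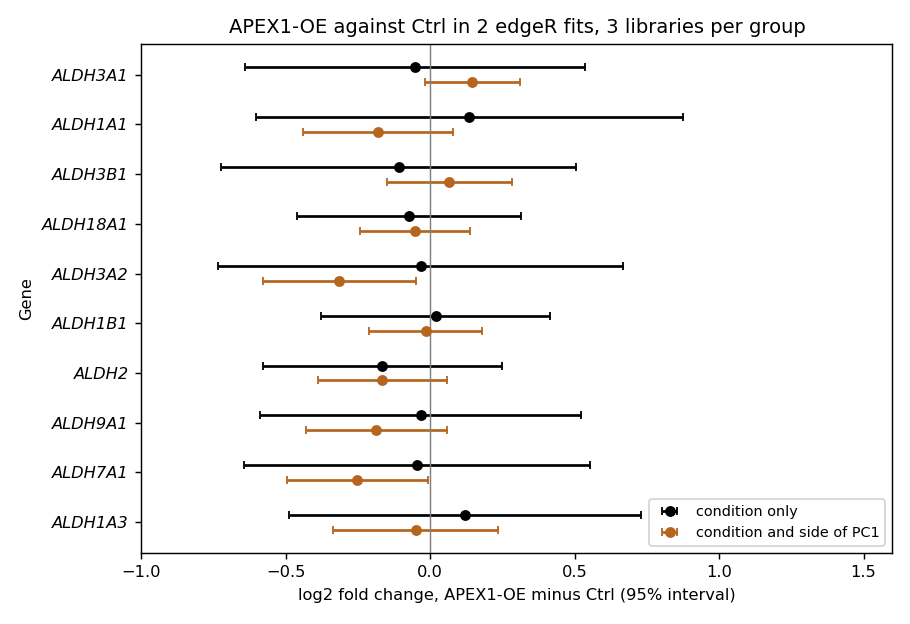
Log2 fold change of each gene, APEX1-OE minus Ctrl, with its 95% interval from edgeR, in the fit with the condition alone (black) and with the side of PC1 as a further term (brown), 3 libraries per group. All intervals of the first fit include 0, and in the second those of ALDH3A2 and ALDH7A1 lie below 0. The side was found in the same counts, so the intervals of the second fit may be too narrow.

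Most of the 10 genes differed more across PC1 than between the groups, except ALDH2, which differed more between the groups, and ALDH18A1, at -0.07 for both. For 7 of the 10 genes all PC1-positive libraries were above or all below the PC1-negative ones in CPM, as they were for 66.4% of all genes tested, from which the division was made. The mean log2 CPM was higher in the PC1-positive libraries by 0.73 for ALDH1A1, 0.60 for ALDH3A2, 0.47 for ALDH1A3, 0.45 for ALDH7A1 and 0.37 for ALDH9A1. It was lower for ALDH3A1, at -0.57, and for ALDH3B1, at -0.58. ALDH1B1 (0.10), ALDH2 (-0.06) and ALDH18A1 (-0.07) overlapped between the sides. These are descriptions with no test, since the sides were found in the same counts.

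The order of these differences went in part with the GC content of the genes. Across 16746 genes with a known GC content, the difference between the sides had a Pearson correlation of -0.781 with it. Genes are not independent replicates, and the points share the same 6 libraries. The 4 genes of lowest GC content were ALDH1A1 (40.9%), ALDH7A1 (43.4%), ALDH3A2 (44.6%) and ALDH9A1 (45.1%). All 4 were higher in the PC1-positive libraries. The 2 of highest, ALDH3A1 (60.2%) and ALDH3B1 (58.7%), were both lower. Among the rest ALDH1A3 (51.5%) left this order, as its 0.47 was above the values of ALDH7A1 and ALDH9A1.

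The genes were then set beside others of like composition. Among the 2788 genes within 2 percentage points of the GC content of ALDH1A1, the median difference between the sides was 0.71, beside 0.73 for ALDH1A1. Among the 1883 genes like ALDH3A1 the median was -0.54, beside -0.57. ALDH1B1, at 0.10 against a median of -0.17, and ALDH2, at -0.06 against 0.15, had the opposite sign to the median of their like. Both lay within the 5th to 95th percentile of those genes, from -0.66 to 0.52 and from -0.46 to 0.90. ALDH1A3 was the member farthest from its like, with 0.47 against a median of -0.14 and 93.0% of 2202 genes below it. It too lay below the 95th percentile of its like, 0.55.

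**Figure D4:**
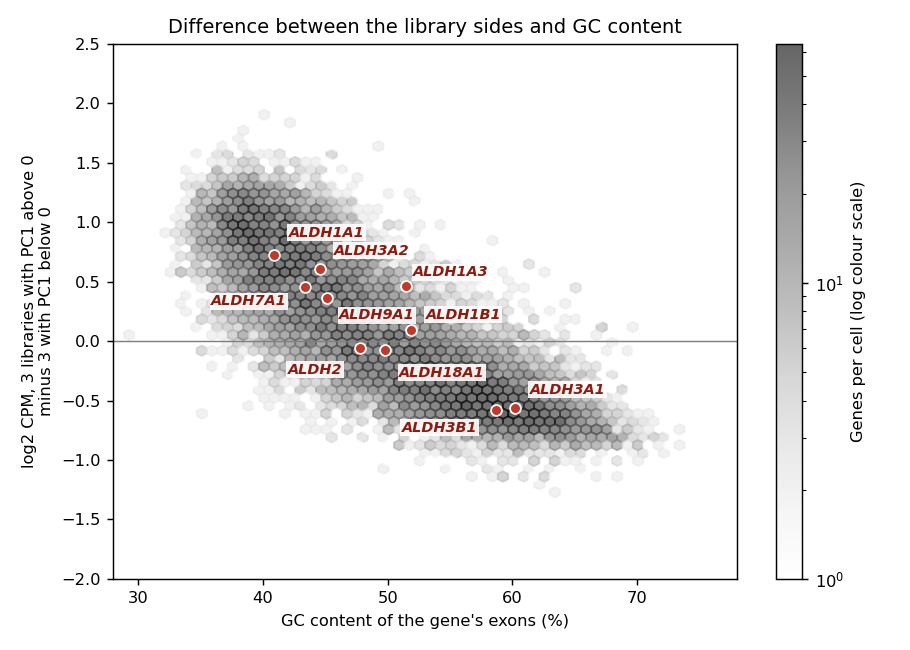
Difference in mean log2 CPM between the 3 libraries with PC1 above 0 and the 3 with PC1 below 0, against the GC content of the gene's exons in percent. Grey cells show how many of 16746 genes fall there, on a log colour scale, and red points are the 10 aldehyde dehydrogenases, from ALDH1A1 (0.73 at 40.9% GC) down to ALDH3B1 (-0.58 at 58.7% GC).

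Across the 6 libraries the log2 CPM of ALDH1A1 and ALDH3A1 ran in opposite directions, with a Pearson r of -0.925, and that of ALDH3A2 and ALDH7A1 ran together, with an r of 0.998. The 3 genes most like ALDH1A1 were SSR1 (r = 0.9997), RNF11 (r = 0.9993) and GBAS (r = 0.9993), out of 8918 genes with a mean of at least 10 CPM. Those most like ALDH3A1 were ZDHHC12 (r = 0.9995), TIMP1 (r = 0.9991) and POMGNT1 (r = 0.9987). Such values were common, as 1554 genes had an r over 0.95 with ALDH1A1 and 1909 with ALDH3A1. All these correlations rest on the same 6 libraries and their division along PC1.

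The other 9 genes of the superfamily all lay below ALDH1A1, ALDH3A1 and ALDH3B1, and some were nearly silent. ALDH16A1 led them with a mean of 13.7 FPKM, above ALDH2 with 12.5. It was followed by ALDH4A1, the proline-degrading enzyme, with 5.75, and ALDH5A1, the succinic semialdehyde dehydrogenase, with 2.30. Both of these were above ALDH1A3 with 1.57. ALDH6A1, which acts in valine degradation, had a mean of 0.845 FPKM and ALDH1L2, the mitochondrial formyltetrahydrofolate dehydrogenase, one of 0.690. These 5 passed the filter, and none was called or had an unadjusted p under 0.05 in the edgeR fit with the condition alone. ALDH1A2, ALDH1L1, ALDH8A1 and ALDH3B2 had at most 11 counts in any library and were not tested, so the retinaldehyde dehydrogenase transcripts of these cells were almost all ALDH1A1.

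ALDH1L2 had the widest difference of the superfamily. It had 97, 471 and 295 counts with APEX1 overexpressed, against 105, 107 and 295 with the control plasmid. The PC1-positive libraries were the high ones in both groups. Its log2 fold change was 0.63 (95% interval -0.44 to 1.70, adjusted p = 1.0 from edgeR).

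The pathways that feed or use these enzymes were looked at through lists of genes. Among the alcohol dehydrogenases and aldehyde reductases, which interconvert the same aldehydes and alcohols, 7 genes were tested and 0 called, with 0 at an unadjusted p under 0.05. All 7 log2 fold changes were below 0, with a median of -0.14, beside 57.5% above 0 over all genes tested. With the side of PC1 as a term the median was -0.07. AKR1A1 (0.08), AKR1B1 (0.10) and AKR7A2 (0.10) were then above 0, and the others stayed below. AKR1B1, an aldose reductase, was the most abundant of the 7 with a mean of 3905 FPKM. It had the smallest difference in the fit with the condition alone, at -0.04. AKR1B10, which reduces retinaldehyde and so competes for the substrate of ALDH1A1, stood at 461, 678 and 856 FPKM with APEX1 overexpressed, against 811, 780 and 828 with the control plasmid. By FPKM, APEX1-OE replicates 1 and 2 were below all Ctrl libraries and APEX1-OE replicate 3 above them. In the scaled counts behind the fold change, APEX1-OE replicate 3 was not above all Ctrl libraries. The log2 fold change of AKR1B10 was -0.32 (95% interval -0.77 to 0.14, adjusted p = 1.0 from edgeR), and -0.40 with the side of PC1 as a term (unadjusted p = 0.00503, adjusted p = 0.356 from edgeR).

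In the retinoid pathway 19 genes were tested and 0 were called, with a median log2 fold change of 0.02. An unadjusted p under 0.05 was reached by 1 gene of the 19, beside 0.695% of all genes tested. That gene was RDH5, a retinol dehydrogenase, with 12, 13 and 11 counts with APEX1 overexpressed, against 5, 7 and 4 with the control plasmid. The groups did not overlap, though the counts were near the lower limit of the filter. Its log2 fold change was 1.07 (95% interval 0.08 to 2.05, unadjusted p = 0.0368, adjusted p = 1.0 from edgeR). CYP26B1, which degrades retinoic acid, was the other gene of the list without overlap and was singled out after its values were seen. Without overlap were thus 2 of the 19 genes, beside 3.39% of all genes tested. CYP26B1 was at 2.23, 2.62 and 2.58 FPKM with APEX1 overexpressed, against 2.87, 2.78 and 2.69 with the control plasmid. Its log2 fold change of -0.19 was not called (adjusted p = 1.0 from edgeR). DHRS3, which reduces retinaldehyde to retinol, was the most abundant gene of the list with a mean of 91.8 FPKM. The lowest log2 fold change was that of CRABP2, a binding protein for retinoic acid, at -0.28.

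Of the NRF2 pathway 18 genes were tested and 0 called, with 0 at an unadjusted p under 0.05. Their median log2 fold change was 0.03, and the summed FPKM of the list lay between 2677 and 2719 in APEX1-OE and between 2695 and 2918 in Ctrl. The most abundant was PGD of the pentose phosphate pathway, with a mean of 542 FPKM and also the lowest log2 fold change, -0.18. The highest was that of the cystine transporter gene SLC7A11, at 0.40, which was at 3.92, 10.6 and 10.0 FPKM with APEX1 overexpressed, against 4.06, 4.29 and 9.92 with the control plasmid. It too was high in the PC1-positive libraries of both groups.

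The aryl hydrocarbon receptor is the other classical regulator of ALDH3A1. Of its list 9 genes were tested and 0 called, with 0 at an unadjusted p under 0.05 and a median log2 fold change of -0.0038. NQO1, which is also in the NRF2 list, had the highest mean level, 438 FPKM. TIPARP, a target that represses the receptor, had the highest log2 fold change, 0.35, and was higher in all PC1-positive libraries than in the PC1-negative ones. AHRR, the receptor's repressor, had the lowest, -0.23, at a mean of 0.538 FPKM. With the side of PC1 as a term the values were 0.01 for TIPARP and -0.18 for AHRR. In the list for proline and ornithine synthesis, the pathway of ALDH18A1, 8 genes were tested and 0 called, with 0 at an unadjusted p under 0.05 and a median of -0.02. The list is not one of synthesis alone, as it also holds ALDH4A1, the proline-degrading enzyme. ODC1, the ornithine decarboxylase, had the highest mean level, 43.0 FPKM, and the highest log2 fold change, 0.11. PRODH, the proline dehydrogenase, had the lowest, -0.34, which rested on between 19 and 45 counts per library.

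In the fit with the side of PC1 as a term none of these lists held a called gene either, and some genes had an unadjusted p under 0.05, beside 11.6% of all genes. Those given here were named after their values were seen. In the rest of the superfamily this was ALDH6A1 of 5 genes, lower at -0.46, and among the alcohol dehydrogenases and aldehyde reductases AKR1B10 of 7. In the retinoid list 3 of 19 passed, RDH5 and the receptor gene RXRB with higher values and RDH10 with a lower one. In the NRF2 list 4 of 18 passed. Of these HMOX1, the heme oxygenase, and OSGIN1 had log2 fold changes of 0.28 and 0.37, and GCLC, a subunit of the enzyme that starts glutathione synthesis, and the transporter gene ABCC2 had values of -0.37 and -0.21. In the proline and ornithine list it was PYCR1 of 8, at 0.34. Among the 6 epithelial markers KRT7 (0.34), KRT19 (0.28) and CDH1 (-0.35) were under this limit. Adjusted p values from edgeR for all of these lay between 0.316 and 0.404.

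**Figure D5:**
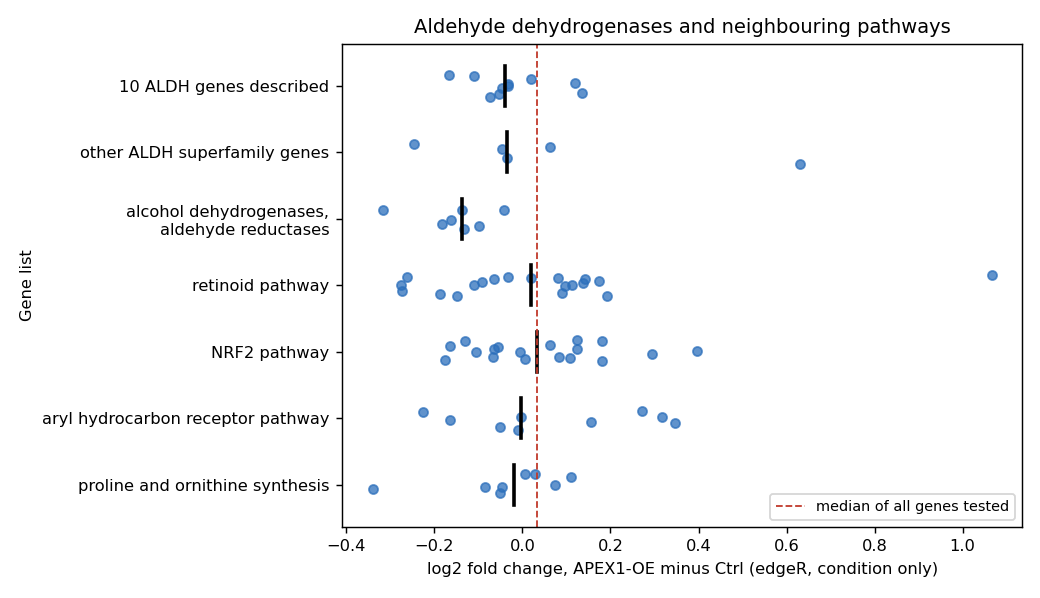
Log2 fold change, APEX1-OE minus Ctrl, of every tested gene in each list (points, spread vertically for visibility), with the list's median (black bar) and the median of all genes tested (dashed line, 0.03). No point was called at an adjusted p under 0.05, and the point farthest to the right is RDH5 at 1.07.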

How the data were processed

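Stranded, paired-end mRNA libraries, 3 of APEX1-OE and 3 of Ctrl cells, were grouped by their sample titles. Trimming by the authors used the FASTX-Toolkit, and reads that TopHat2 placed uniquely on GRCh38 were kept. They deposited raw counts per gene and FPKM rounded to hundredths. No source used here names the counting tool, the annotation or the use of strand.

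Here, genes were filtered with edgeR's filterByExpr (a count of 10, a total of 15) and scaled by TMM. The robust quasi-likelihood F-test of edgeR 4.0.16 in R 4.3.3 was fitted to all 6 libraries, with Benjamini-Hochberg adjustment at 0.05. FPKM were used for levels between genes, and for limma 3.58.1 on log2(FPKM + 1) among genes with a mean of at least 0.1 FPKM. DESeq2 1.42.0 was an alternative. Log2 CPM used a prior count of 2. GC content and length came from GENCODE release 44 on GRCh38, and coding sequences from its canonical transcripts. They were aligned with Biopython 1.88. The alternatives also covered other filters and size factors, leaving out each library, a replicate block, and the side of PC1 as a term.

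The genes named are the 10 members, the rest of the superfamily, APEX1, in each other list the most abundant gene and those with the highest and lowest log2 fold change, and the genes most correlated with the 2 most abundant members. Cell type markers, overlapping genes, CYP26B1 and the list genes named for the fit with the side of PC1 fall outside this rule and were named after their values were seen. The members, lists and settings were chosen with earlier results of these data known. The PROSITE pattern was written from general knowledge, and protein sequences were not used here. The result for 1 gene of the lists is not reported here.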

Additional observations from a re-analysis of the deposited data

How the results depend on the processing

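None of the 10 aldehyde dehydrogenases was called in any of 15 alternatives, nor was any gene of the rest of the superfamily or of the 5 pathway lists. The number of all genes called was 1 in the fit reported, 10 without a filter on low counts, 2 with limma on log2(FPKM + 0.1), 4 with the side of PC1 as a term, and 20 with that term and an offset for GC content and length. It was 2 with the replicate block. It was between 0 and 1 with each library left out, and 0 without replicate 2 or 3 of APEX1-OE and without replicate 1 or 2 of Ctrl. Not even APEX1 was called where the number was 0, so the lack of called members says little in those settings. No source used here says whether equal replicate numbers pair the libraries. Same-numbered libraries had deviations from their group mean that correlated at 0.607, -0.521 and 0.700. APEX1-OE replicates 1 and 2 correlated better with another number, at 0.636 and 0.670. The deviations also carry the division along PC1, so they cannot decide whether the libraries are paired.

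With the side of PC1, and with the side and the offset, the log2 fold changes turned to -0.18 and -0.10 for ALDH1A1, -0.050 and -0.052 for ALDH1A3, -0.016 and -0.033 for ALDH1B1, and 0.15 and 0.0091 for ALDH3A1. ALDH3B1 turned to 0.066 with the side alone. With a library left out they lay between -0.17 and 0.39 for ALDH1A1, -0.025 and 0.053 for ALDH1B1, -0.31 and 0.072 for ALDH3A1, -0.30 and 0.20 for ALDH3A2, -0.40 and 0.073 for ALDH3B1, -0.23 and 0.14 for ALDH7A1, and -0.17 and 0.11 for ALDH9A1. The cause was not tested.

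Counts per kb of the canonical transcript, a setting added after seeing the data, moved the share of the summed level by more than its SD for ALDH1A3 (0.0739% in place of 0.0558%), ALDH1B1 (0.693% in place of 0.811%), ALDH2 (0.379% in place of 0.448%) and ALDH18A1 (0.770% in place of 0.913%). ALDH3A2 then came before ALDH18A1 in the order, and the other places by the mean were the same. In APEX1-OE replicate 2 the lead passed from ALDH1A1 to ALDH3A1 (ratio 0.891 in place of 1.22).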
